A study of Mus musculus with 6 samples.

Results

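The 10 genes described here, *H2-K1*, *H2-D1*, *B2m*, *Tap1*, *Psmb8*, *Psmb9*, *H2-Aa*, *H2-Ab1*, *H2-Eb1* and *Cd74*, serve to show peptides to T cells. They were chosen by name as the major histocompatibility complex (MHC) class I and class II genes, the inducible proteasome subunits and the peptide transporter of this pathway, out of 54115 mouse genes with a read sum. Earlier results of these data were known when these genes and the lists below were chosen. Shares over all tested genes are thus given for scale and not as a test. All 10 passed the filter on low counts, as did 12524 genes in all. RNA was sequenced from the livers of 3 wild-type (WT) and 3 *Sirt7* knockout (KO) mice. The WT and KO mice were male, 24 months old and fasted for 16 h before the liver was taken, and both groups came from crosses of heterozygotes on a C57BL/6J background. The line was of mixed strain origin and had been backcrossed to C57BL/6J. *Sirt7* encodes a deacylase of the nucleus, and the knockout is not described as restricted to a tissue, so effects of its loss in the liver and in other organs cannot be told apart. The question asked of these genes was whether their RNA differed between the genotypes in the aged, fasted liver.

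Class I molecules are made by nearly all nucleated cells. The proteasome cuts cytosolic proteins, the TAP transporter carries the peptides into the endoplasmic reticulum, and chaperones load them onto a heavy chain that is held by beta-2 microglobulin. Interferon makes cells replace the catalytic subunits of the proteasome with inducible ones and raises the transporter and the heavy chains. Class II molecules are made by macrophages, dendritic cells and B cells, and present peptides from engulfed material. Their chains are guarded by the invariant chain encoded by *Cd74*. In the liver the resident macrophages are the Kupffer cells, while hepatocytes make most of the RNA.

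Each library held between 9955504 and 13373846 reads on genes. Values are given in CPM, the reads of a gene relative to the size of its library after TMM scaling, which corrects for a few abundant genes taking up reads. The libraries were those of liver, since *Alb* (albumin) was at 21670 to 27680 CPM. *Sirt7* was at 55.2, 45.5 and 47.3 CPM in WT 1, 2 and 3 and at 28.6, 41.8 and 40.8 CPM in *Sirt7* KO 1, 2 and 3. Every *Sirt7* KO liver was thus below every WT liver, but reads of *Sirt7* remained, and the position of the deleted part was not used here. A difference was called where edgeR's quasi-likelihood test gave an adjusted p-value below 0.05 together with a fold change above 1.5. Fold changes are *Sirt7* KO over WT and carry the standard error (SE) of the fit.

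Of the 10 genes 0 were called by edgeR, against 0.00798% of all tested genes, which is 1 gene. DESeq2, the tool of the study, called 2 of them (*Psmb8* and *Psmb9*, against 2.11% of all genes) without offsets for transcript length, and 1 (*Psmb9*, against 1.81%) with them. Without a filter on low counts edgeR called 3 (*Tap1*, *Psmb8* and *Psmb9*, against 2.27%). At an unadjusted p-value under 0.05, edgeR found 4 higher in *Sirt7* KO livers, namely *Psmb9*, *Psmb8*, *Tap1* and *H2-Eb1*, and 0 lower, where 6.54% of all tested genes were higher and 4.78% lower. All 4 also had a fold change over 1.5, as did 7.39% of all genes at that p in either direction. All 10 fitted log2 fold changes were above 0, as were 6179 of the 12524 over all tested genes, with a median of 0.61 (range 0.09 to 1.38), beside a median of -0.01 over all tested genes. In 3 of the 10, *H2-D1*, *Psmb8* and *Psmb9*, every *Sirt7* KO liver lay above every WT liver, which held for 8.74% of all tested genes. The count of 4 fell to 2 without WT 3 (6.01% of all genes higher) or without *Sirt7* KO 1 (8.97%), and was 7 without *Sirt7* KO 2 (4.42%) or without a filter (4.99%). *Psmb8* and *Psmb9* stayed at an unadjusted p under 0.05 in each of these fits.

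**Figure D1:**
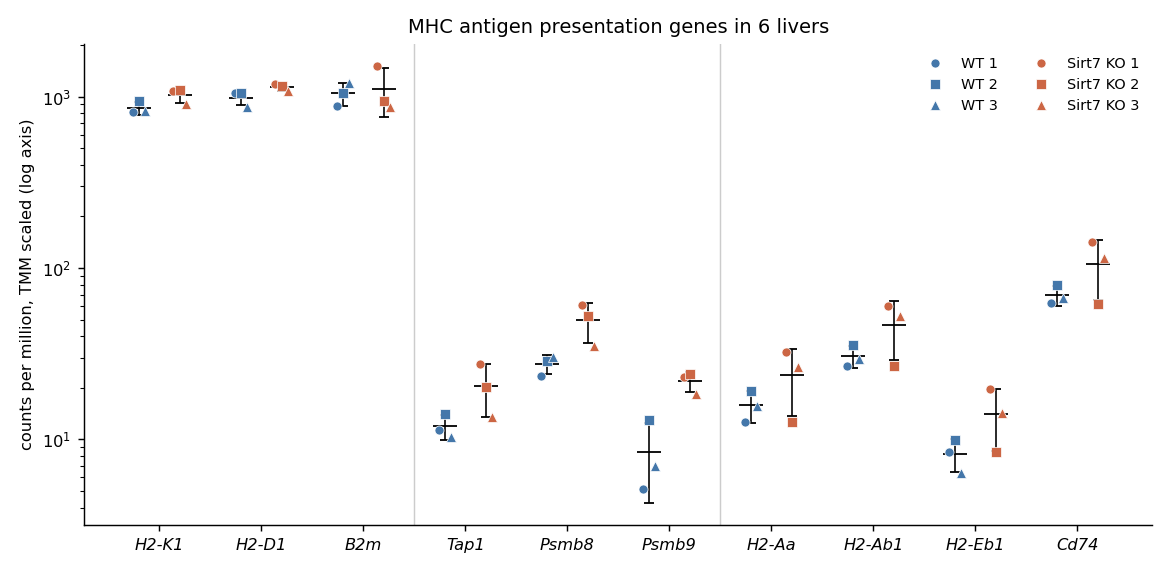
CPM (log axis) of the 10 genes in each liver, with blue for WT, red for *Sirt7* KO, a marker shape for each replicate number, and a black bar and whiskers for the mean and SD of 3 livers. Class I genes at the left lie highest, with the genotypes close together, *Psmb8* and *Psmb9* in the middle are separated by genotype, and at the right *Sirt7* KO 2 lies at or near the WT levels for all 4 class II genes.

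Levels between genes were compared in TPM, which are scaled to transcript length as well as to library size. In WT livers the order was *B2m* (1431 ± 177 TPM, SD, n = 3), *H2-K1* (833 ± 75.5), *H2-D1* (495 ± 66.3), *Cd74* (60.2 ± 5.76), *H2-Ab1* (29.6 ± 3.53), *Psmb8* (29.1 ± 3.34), *H2-Aa* (15.2 ± 2.22), *H2-Eb1* (8.58 ± 1.68), *Psmb9* (8.49 ± 4.72) and *Tap1* (3.66 ± 0.43). The WT ranges of *H2-Ab1* and *Psmb8* overlapped, as did those of *H2-Eb1* and *Psmb9*, and no other neighbours in this order did. The 10 genes together took 0.297% to 0.408% of the reads on genes of a library, and the 3 class I genes held between 91.2% and 94.8% of that. *Sirt7* KO 1 was the highest of the 6 livers for 8 of the 10 genes and *Sirt7* KO 2 for the other 2, *H2-K1* and *Psmb9*.

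The class I molecule itself, made of a heavy chain from *H2-K1* or *H2-D1* and the light chain from *B2m*, was the most abundant part of the pathway and showed the smallest fold changes. *H2-K1* (chromosome 17 of GRCm38, 33996017 to 34000347, minus strand) was at 808, 946 and 823 CPM in WT 1, 2 and 3 and at 1082, 1093 and 902 CPM in *Sirt7* KO 1, 2 and 3. *Sirt7* KO 1 and 2 exceeded all WT livers, and *Sirt7* KO 3 lay below WT 2, so the groups overlapped. On the log2 scale the fold change was 0.26 (SE 0.16, adjusted p = 0.59, edgeR). *H2-D1* (chromosome 17, 35262730 to 35267499, plus strand) was at 1044, 1046 and 872 CPM in WT livers and at 1180, 1147 and 1078 CPM in *Sirt7* KO livers. These groups did not overlap, yet the step from the highest WT to the lowest *Sirt7* KO liver was small beside the range within WT. For *H2-D1* the fold change on this scale was 0.20 (SE 0.15, adjusted p = 0.68, edgeR). *B2m* (chromosome 2, 122147686 to 122153083, plus strand) was at 880, 1046 and 1205 CPM in WT livers and at 1511, 941 and 871 CPM in *Sirt7* KO livers. *Sirt7* KO 1 was the highest and *Sirt7* KO 3 the lowest of all 6, and the log2 fold change of 0.09 (SE 0.24, adjusted p = 0.93, edgeR) turned to -0.20 without *Sirt7* KO 1, to -0.03 without WT 1 and to -0.01 when libraries were scaled by total counts.

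*H2-K1* and *H2-D1* are paralogs whose transcripts are alike in part. Of the words of 31 bases in their transcripts, 11.1% of those of *H2-K1* also occur in *H2-D1* and 13.8% of those of *H2-D1* in *H2-K1*, so reads can move between the genes in the authors' quantification. Their reads were therefore also summed, and the sum had a log2 fold change of 0.23 (SE 0.16, adjusted p = 0.64, edgeR), which was 0.12 with total counts and 0.13 with offsets for transcript length. A sum over 16 class I heavy chain genes of the H2-K, H2-D, H2-Q and H2-T series gave 0.37 (SE 0.20, adjusted p = 0.54, edgeR). Within a liver *H2-K1* had 0.774 to 0.953 times the reads of *H2-D1*, but 1.39 to 1.82 times its TPM, and neither ratio separated the genotypes. With offsets for transcript length the log2 fold change of *H2-K1* was 0.08, and that of *H2-D1* was 0.09 with total counts and 0.12 without WT 3.

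The promoters of these 3 genes are shown because interferon acts on class I genes through short elements near the start. An interferon-stimulated response element (ISRE) was searched as GAAA, then NN (any base), then GAAA, a gamma-activated site (GAS) as TTCNNNGAA and a Y box as CCAAT, each on both strands, in RefSeq windows of GRCm38.p6 from 250 bases before to 50 bases after the start. No match of one motif overlapped a match of another. The sequences below run 5′ to 3′ on the strand of the gene, and capitals mark the matches. For *H2-K1* (chr17:34000348-34000497) and *B2m* (chr2:122147536-122147685) the 150 bases before the start are given, and for *H2-D1* (chr17:35262932-35262961) a stretch of 30 bases around a match, which lies in an exon of GENCODE M21.
H2-K1: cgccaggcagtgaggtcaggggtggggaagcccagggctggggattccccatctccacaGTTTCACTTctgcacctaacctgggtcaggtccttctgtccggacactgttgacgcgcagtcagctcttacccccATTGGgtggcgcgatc
H2-D1: ccatctcctcaGTTTCACTTctgcacctaa
B2m: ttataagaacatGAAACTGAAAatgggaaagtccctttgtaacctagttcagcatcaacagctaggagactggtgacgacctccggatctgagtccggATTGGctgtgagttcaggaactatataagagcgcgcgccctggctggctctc
The window of *B2m* held the ISRE letters, GAAACTGAAA, at bases -139 to -130 from the start, and 3.44% of all 32851 promoter windows held such a match. *H2-K1* and *H2-D1* share the stretch GTTTCACTT, which matches on the other strand a looser ISRE, AANNGAAAC, that was added after the promoters were seen and occurs in 5.77% of all windows. ATTGG, the Y box read on the other strand, stands in the stretches of *H2-K1* and *B2m*, and 37.4% of all windows held a Y box. A match is a description of these letters and not a site that was measured.

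The genes that cut and carry the peptides all had an unadjusted p under 0.05. *Psmb9* (chromosome 17, 34181987 to 34187764, minus strand) encodes the inducible subunit that takes the place of the one encoded by *Psmb6*. It was at 5.17, 13.1 and 6.95 CPM in WT 1, 2 and 3 and at 23.2, 24.0 and 18.5 CPM in *Sirt7* KO 1, 2 and 3, which rests on 61 to 253 reads per library. Even the lowest *Sirt7* KO liver was above the highest WT liver, and the 3 WT livers differed more among themselves than the 3 *Sirt7* KO livers did. The fold change was 2.61, or 1.38 on the log2 scale (SE 0.32, unadjusted p = 0.0018, adjusted p = 0.17, edgeR).

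*Psmb8* (chromosome 17, 34197721 to 34201454, plus strand) encodes the inducible counterpart of the subunit from *Psmb5*. It was at 23.5, 28.8 and 30.4 CPM in WT livers and at 60.6, 52.4 and 35.3 CPM in *Sirt7* KO livers. The groups did not overlap, with *Sirt7* KO 3 nearest to WT. The fold change was 1.79, or 0.84 on the log2 scale (SE 0.21, unadjusted p = 0.0033, adjusted p = 0.19, edgeR). *Tap1* (chromosome 17, 34187553 to 34197225, plus strand), a chain of the peptide transporter, was at 11.4, 14.1 and 10.3 CPM in WT livers and at 27.6, 20.1 and 13.6 CPM in *Sirt7* KO livers. *Sirt7* KO 1 and 2 exceeded all WT livers and *Sirt7* KO 3 lay just below WT 2, so the groups overlapped. For *Tap1* the log2 fold change came to 0.78 (SE 0.26, unadjusted p = 0.016, adjusted p = 0.31, edgeR), and the unadjusted p was 0.066 without *Sirt7* KO 1 and 0.058 without WT 3.

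*Psmb9* and *Tap1* start back to back, and their promoter windows share 275 of 300 bases, so what lies between the starts is common to both. The stretches of 30 bases around their Y box and around the GAS letters of *Psmb8* are shown for this reason, with the matches in capitals. All 3 stretches, at chr17:34187331-34187360 for *Psmb9*, chr17:34187321-34187350 for *Tap1* and chr17:34198087-34198116 for *Psmb8*, lie in exons of GENCODE M21.
Psmb9: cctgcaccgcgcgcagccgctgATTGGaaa
Tap1: ggggctcggctttCCAATcagcggctgcgc
Psmb8: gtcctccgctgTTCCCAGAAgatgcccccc
The ATTGG of *Psmb9* and the CCAAT of *Tap1* are the same bases read on opposite strands. TTCCCAGAA in *Psmb8* is at -97 to -89 from the start, and 8.3% of all windows held a GAS match. Of the 8 genes with a window, 1 held the ISRE core, 1 the GAS and 7 a Y box, *Psmb8* being the exception. The transcripts of *Psmb9* and *Tap1* overlap, so that 4.79% of the words of 31 bases of *Psmb9* also occur in *Tap1*, and the kit does not mark the strand. *Psmb8* shares 13.7% of its words with other genes, nearly all of them with *Gm20496*, to which 0 to 4 reads per library were assigned.

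Inducible and constitutive subunits compete for the same place in the proteasome, and the ratio of their reads within a liver does not depend on scaling between libraries. The constitutive subunits *Psmb5*, *Psmb6* and *Psmb7* had log2 fold changes of -0.25, -0.26 and -0.14, and 0 of these 3 reached an unadjusted p under 0.05. *Psmb8* had 0.177, 0.166 and 0.222 times the reads of *Psmb5* in WT 1, 2 and 3 and 0.511, 0.412 and 0.276 times in *Sirt7* KO 1, 2 and 3. For *Psmb9* over *Psmb6* the ratios were 0.0223, 0.0505 and 0.0356 in WT livers and 0.128, 0.122 and 0.0951 in *Sirt7* KO livers. Both ratios were higher in every *Sirt7* KO liver than in any WT liver, by 1.05 and 1.74 on the log2 scale. *Psmb10*, the remaining inducible subunit, had 0.354, 0.299 and 0.289 times the reads of *Psmb7* in WT livers and 0.381, 0.428 and 0.459 times in *Sirt7* KO livers. This ratio too was higher in every *Sirt7* KO liver, by 0.43 on the log2 scale, although *Psmb10* itself overlapped between genotypes (23.2 to 28.5 CPM in WT, 24.4 to 34.1 CPM in *Sirt7* KO). For each of the 3 ratios the two-sided exact permutation test gave p = 0.1, the smallest that 3 livers against 3 allow, so the design could not reach 0.05. *Psmb5* shares 59.8% of its words of 31 bases with *Gm3375*, and its own level is uncertain for that reason.

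**Figure D2:**
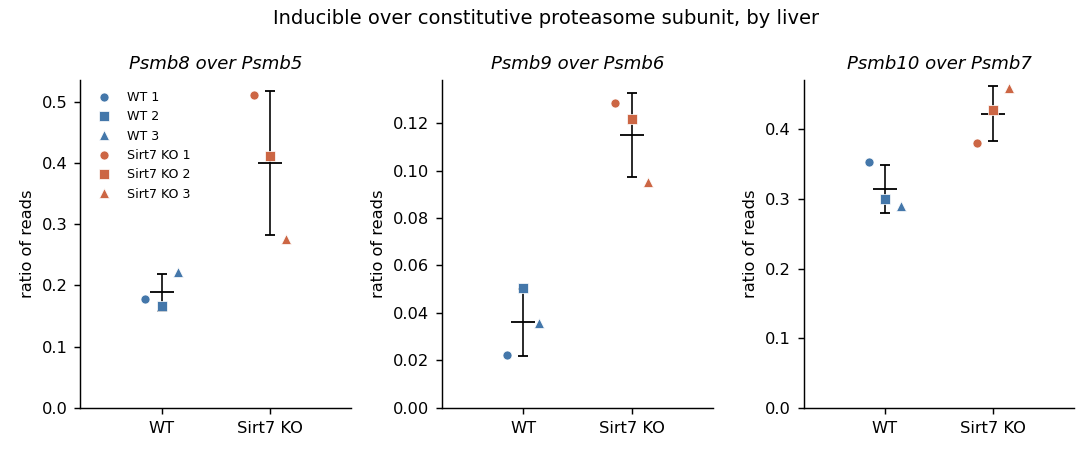
Reads of an inducible proteasome subunit divided by those of its constitutive counterpart, per liver, for 3 pairs of subunits, with blue for WT, red for *Sirt7* KO, a marker shape for each replicate number, and black bars and whiskers for the mean and SD of 3 livers. In each pair all *Sirt7* KO livers lie above all WT livers. The axes show plain ratios, and the difference is largest for *Psmb9* over *Psmb6* only on the log2 scale (1.74).

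The 4 class II genes followed another order of livers. *H2-Aa* and *H2-Ab1* encode the alpha and beta chain of the I-A molecule, *H2-Eb1* the beta chain of I-E, and *Cd74* the invariant chain. The gene of the I-E alpha chain, *H2-Ea-ps*, is annotated as a pseudogene. *Cd74* (chromosome 18), the most abundant, was at 62.1, 79.7 and 66.7 CPM in WT 1, 2 and 3 and at 141, 61.8 and 114 CPM in *Sirt7* KO 1, 2 and 3. *Sirt7* KO 1 and 3 were above every WT liver, while *Sirt7* KO 2 was just below the lowest WT liver. *H2-Ab1* (chromosome 17, 34257689 to 34269419, plus strand) was at 26.8, 35.6 and 29.5 CPM in WT livers and at 60.0, 26.9 and 52.4 CPM in *Sirt7* KO livers. *H2-Aa* (chromosome 17, 34282744 to 34287823, minus strand) was at 12.6, 19.1 and 15.6 CPM in WT livers and at 32.2, 12.6 and 26.3 CPM in *Sirt7* KO livers. In both chains of I-A, *Sirt7* KO 2 was within 0.1 CPM of WT 1, the lowest WT liver. *H2-Eb1* (chromosome 17, 34305867 to 34316674, plus strand) was at 8.47, 9.89 and 6.36 CPM in WT livers and at 19.6, 8.48 and 14.3 CPM in *Sirt7* KO livers. For *H2-Eb1* *Sirt7* KO 2 lay inside the WT range and the other *Sirt7* KO livers above it. *Sirt7* KO 1 and 3 exceeded, and *Sirt7* KO 2 did not exceed, the highest WT liver in each of the 4 genes, so that the genotypes overlapped for all 4 genes.

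The log2 fold changes of the class II genes lay close together, at 0.59 for *H2-Aa* (SE 0.32, adjusted p = 0.54, edgeR), 0.60 for *H2-Ab1* (0.27, adjusted p = 0.45), 0.61 for *Cd74* (0.27, adjusted p = 0.45) and 0.78 for *H2-Eb1* (0.31). *H2-Eb1* alone of the class II genes had an unadjusted p under 0.05 (0.035, adjusted p = 0.39, edgeR). This depended on the setting. With offsets for transcript length the unadjusted p in edgeR was 0.087 for *H2-Eb1* and 0.045 for *Cd74*. With total counts it was 0.065 for *H2-Eb1*. Without *Sirt7* KO 2 all 4 had an unadjusted p under 0.05 and log2 fold changes of 0.88 to 1.04, with adjusted p-values still above 0.05, and without *Sirt7* KO 1 none of the 4 had and the log2 fold changes were 0.31 to 0.47.

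Although the level differed up to 3.08-fold between livers, the proportions of the class II genes to each other varied less. *Cd74* had 2.31, 2.24 and 2.26 times the reads of *H2-Ab1* in WT 1, 2 and 3 and 2.36, 2.29 and 2.18 times in *Sirt7* KO 1, 2 and 3. *Sirt7* KO 2, with the fewest class II reads of the *Sirt7* KO livers, lay between the other *Sirt7* KO livers in this ratio. The ratio of *H2-Aa* to *H2-Ab1* reads was 0.469 to 0.538 and that of *H2-Eb1* to *H2-Ab1* was 0.215 to 0.327, with genotypes overlapping in each (two-sided exact permutation test, p = 1.0 for *Cd74*, 0.7 for *H2-Aa* and 0.5 for *H2-Eb1*, with a smallest possible p of 0.1).

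**Figure D3:**
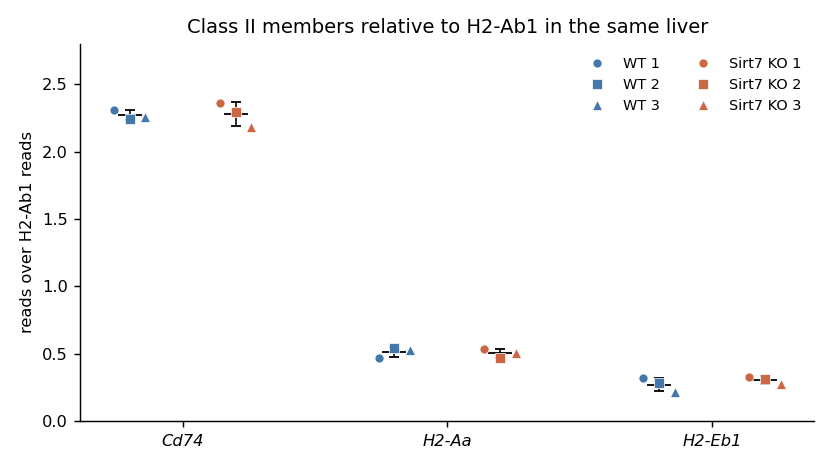
Reads of *Cd74*, *H2-Aa* and *H2-Eb1* divided by the reads of *H2-Ab1* in the same liver, with blue for WT, red for *Sirt7* KO, a marker shape for each replicate number, and black bars and whiskers for the mean and SD of 3 livers. The ratios run from 2.18 to 2.36 for *Cd74*, from 0.47 to 0.54 for *H2-Aa* and from 0.22 to 0.33 for *H2-Eb1*. On the log2 scale the ratio varied most for *H2-Eb1* (SD 0.28 in WT and 0.14 in *Sirt7* KO livers).

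The promoter sequences of *H2-Aa* and *H2-Eb1* are shown because these genes moved together from liver to liver. The stretch of *H2-Aa* is the 150 bases before the start (chr17:34287824-34287973), and that of *H2-Eb1* is 30 bases around a match (chr17:34305795-34305824), each 5′ to 3′ on the strand of the gene, with the Y box in capitals as read on the other strand.
H2-Aa: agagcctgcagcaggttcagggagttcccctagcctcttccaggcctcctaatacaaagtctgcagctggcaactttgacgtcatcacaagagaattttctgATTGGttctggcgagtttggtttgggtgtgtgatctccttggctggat
H2-Eb1: tcctttgatgctgATTGGctcccagcactg
The Y box shown lies at -48 to -44 in *H2-Aa* and at -59 to -55 in *H2-Eb1*, whose window holds a further match, CCAAT at -35 to -31. It is a known element of class II promoters, where it is bound by the factor NF-Y, and 37.4% of all windows held it.

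Levels of class II RNA in a piece of liver depend on the cells it holds, so markers of those cells were read in the same libraries. In bulk RNA, fewer cells of a type and less RNA per cell cannot be told apart. Of the 12 Kupffer cell markers 0 had an unadjusted p under 0.05 in edgeR, and their median log2 fold change was 0.20. Their summed level was 96.2, 104 and 247 CPM in WT 1, 2 and 3 and 248, 93.0 and 184 CPM in *Sirt7* KO 1, 2 and 3. *Sirt7* KO 1 and 3 were thus high and *Sirt7* KO 2 low in these markers, as they were in class II RNA, but WT 3 was high in the markers and not in class II RNA. The summed class II level was 110, 144 and 118 CPM in WT livers and 253, 110 and 207 CPM in *Sirt7* KO livers. *Clec4f*, a lectin of Kupffer cells, was at 18.5, 18.0 and 32.0 CPM in WT livers and at 47.4, 18.5 and 37.3 CPM in *Sirt7* KO livers, and *C1qb*, a chain of complement C1q, at 20.9, 17.1 and 39.0 and at 43.8, 16.9 and 38.0 CPM. *Marco*, named here after its value was seen, was at 42.8 CPM in WT 3 and at 1.16 to 4.35 CPM in the other livers. Class II reads per Kupffer marker read were 1.14, 1.39 and 0.479 in WT livers and 1.02, 1.18 and 1.12 in *Sirt7* KO livers, and the genotypes overlapped. The part of Kupffer cells in the class II values was not tested. *Psmb9* was highest in *Sirt7* KO 2, the liver with the lowest summed level of these markers, at 24.0 CPM beside 23.2 CPM in *Sirt7* KO 1. *Psmb8* and *Tap1* were highest in *Sirt7* KO 1, the liver with the highest summed level, at 60.6 and 27.6 CPM.

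**Figure D4:**
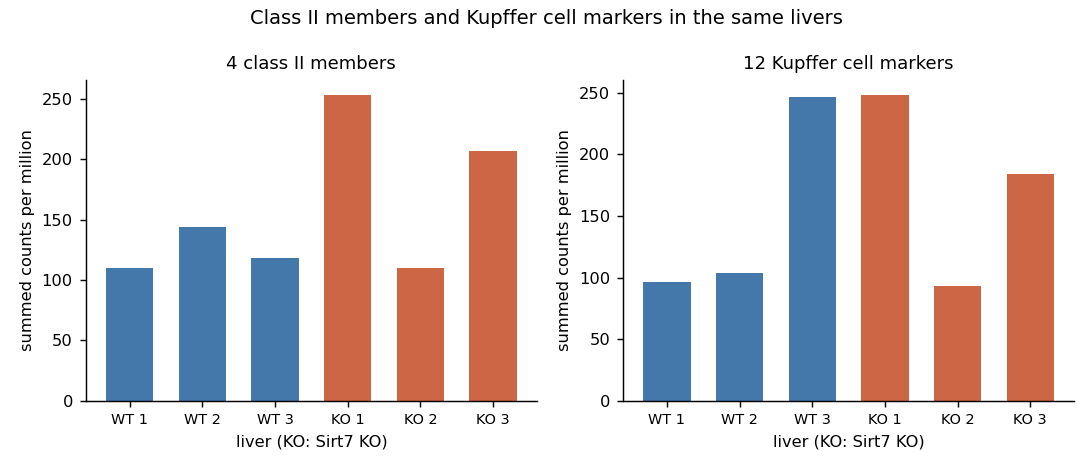
Summed CPM per liver of the 4 class II genes (left) and of 12 Kupffer cell markers (right), with a bar for each liver, blue for WT and red for *Sirt7* KO. *Sirt7* KO 1 and 3 are high and *Sirt7* KO 2 is low in both panels, whereas WT 3 is high in the markers (247 CPM) with a class II sum of 118 CPM.

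Markers of dendritic cells and B cells, which also carry class II molecules, were scarce. The 10 dendritic cell markers summed to 7.98 to 10.6 CPM in WT livers and 6.15 to 8.24 CPM in *Sirt7* KO livers, most of it from *Zbtb46* (3.81 to 7.62 CPM), while *Itgax* and *Flt3*, named here as defining markers of these cells, stayed under 1 CPM in every liver. The 8 B cell markers summed to 2.71 to 7.62 CPM in WT livers and 2.54 to 4.39 CPM in *Sirt7* KO livers. Those of T and NK cells (13 markers) summed to 3.36 to 10.8 CPM and 5.30 to 7.69 CPM, those of monocytes and neutrophils (8 markers) to 4.72 to 6.77 CPM and 4.33 to 10.6 CPM, and the 8 general leukocyte markers to 101 to 119 CPM and 91.3 to 128 CPM, of which *Lcp1* gave 63.9 to 81.5 CPM and *Laptm5* at least 5.09 CPM. *Ly6g*, a neutrophil marker named here because it was absent, had 0 reads in every library. In none of these lists did a tested marker reach an unadjusted p under 0.05 in edgeR, nor did any tested one among 7 plasma cell, 9 sinusoidal endothelial, 10 stellate cell and cholangiocyte and 10 hepatocyte markers. Only 1 dendritic cell, 1 B cell, 3 T and NK cell, 3 monocyte and neutrophil and 3 plasma cell markers passed the filter. Most markers of those lists were thus not tested. The 9 sinusoidal endothelial markers were not scarce. They summed to 106, 94.1 and 125 CPM in WT 1, 2 and 3 and to 127, 96.4 and 138 CPM in *Sirt7* KO 1, 2 and 3. The general leukocyte markers summed to 128, 91.3 and 118 CPM in *Sirt7* KO 1, 2 and 3. Thus *Sirt7* KO 2 was the lowest *Sirt7* KO liver in both of these sums too.

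Class II genes also need accessory proteins, such as H2-DM, which exchanges peptides, and the proteases that trim the invariant chain. Of 19 such genes 12 passed the filter, and 0 of these had an unadjusted p under 0.05 (median log2 fold change 0.18). *Ctsb* and *Ctsl*, cathepsins that are abundant in liver, had log2 fold changes of 0.10 (SE 0.14) and 0.23 (0.16). *Ciita*, named here for its role as the master activator of class II transcription, was at 1.95, 2.90 and 0.740 CPM in WT livers and at 2.29, 0.530 and 0.578 CPM in *Sirt7* KO livers. *Sirt7* KO 2 was its lowest liver, as for *H2-Aa* and *Cd74*, while WT 2 was its highest, and these values rest on few reads.

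Further genes supply and load peptides for class I. Of 14 such genes outside the 10, 5 had an unadjusted p under 0.05 and were higher (6.54% of all tested genes were), 0 were lower, and the median log2 fold change was 0.33. In all 5, which were picked by that p-value, every *Sirt7* KO liver lay above every WT liver, as held for 8.74% of all tested genes. *Calr*, which encodes the chaperone calreticulin, was at 176, 134 and 129 CPM in WT livers and at 285, 246 and 281 CPM in *Sirt7* KO livers (log2 fold change 0.89, SE 0.17, unadjusted p = 0.00047, adjusted p = 0.12, edgeR). *Pdia3*, a disulfide isomerase of the loading complex, was at 254, 267 and 249 CPM in WT livers and at 409, 354 and 403 CPM in *Sirt7* KO livers (0.60, SE 0.14, adjusted p = 0.17, edgeR). Both also fold other glycoproteins in the endoplasmic reticulum, as does calnexin from *Canx* (log2 fold change 0.41). The more dedicated loading genes were *Tap2*, the partner of *Tap1*, at 0.48 (SE 0.14, adjusted p = 0.24, edgeR) and *Tapbp*, which encodes tapasin, at 0.38 (SE 0.13, adjusted p = 0.34, edgeR). *Nlrc5*, named here as the known activator of class I transcription, was at 17.4 to 20.2 CPM in WT and 17.3 to 19.5 CPM in *Sirt7* KO livers, with a log2 fold change of -0.06 (SE 0.15).

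**Figure D5:**
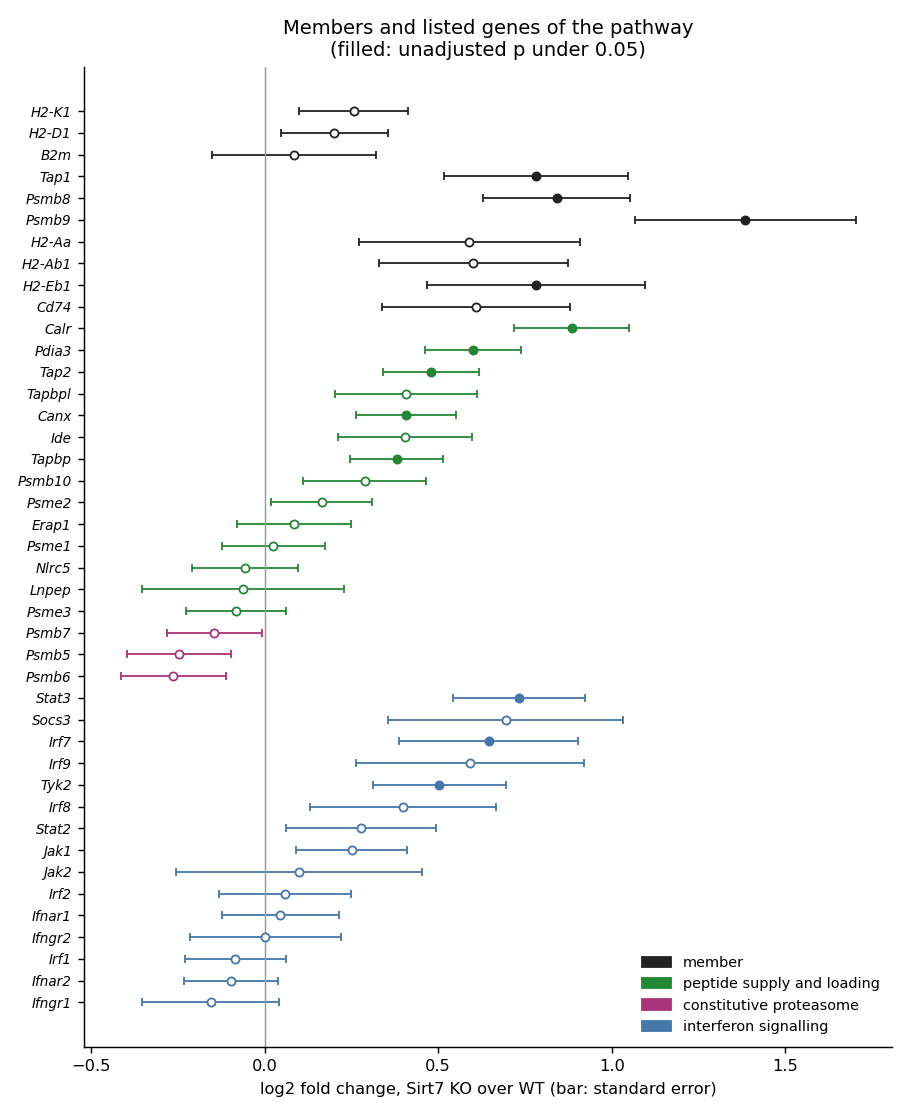
Log2 fold change of *Sirt7* KO over WT from edgeR with its standard error for the 10 genes (black) and for tested genes of peptide supply and loading (green), the constitutive proteasome (magenta) and interferon signalling (blue), where filled points have an unadjusted p under 0.05. *Psmb9* is farthest to the right at 1.38, the 3 constitutive subunits are left of 0, and *Calr* and *Stat3* lead their lists.

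Other class I genes showed the same direction in part. Of 21 listed class I and class I-like genes 20 had a read sum and 15 passed the filter, of which 6 had an unadjusted p under 0.05 and were higher (6.54% of all tested genes were), 0 were lower (4.78%), and the median log2 fold change was 0.36. *H2-T22*, a ligand of gamma delta T cells, was at 37.3, 34.9 and 43.0 CPM in WT livers and at 59.6, 59.4 and 61.9 CPM in *Sirt7* KO livers, without overlap (log2 fold change 0.65, SE 0.14, unadjusted p = 0.0011, adjusted p = 0.15, edgeR). *H2-T22* shares 47.2% of its words of 31 bases with *H2-T10* (log2 fold change 1.33, on 9 to 37 reads per library), so these cannot be told apart fully. *H2-M3*, which presents formylated peptides of bacteria, and *Mr1*, which presents vitamin metabolites, had log2 fold changes of 1.21 and 1.30 at levels under 10 CPM. *H2-Q7* was at 0.40, and 22.4% of its words also occur in *H2-Q10*, so reads can move between these too. The pseudogene *H2-K2* had a log2 fold change of 1.05 at 2.03 to 7.74 CPM, and its genotypes overlapped. *H2-Q10*, a secreted class I molecule made by liver, was more abundant than *H2-K1* or *H2-D1* in reads, at 2121, 3594 and 3028 CPM in WT livers and 3032, 4705 and 4194 CPM in *Sirt7* KO livers, with overlap (0.45, SE 0.25, adjusted p = 0.55, edgeR). *Fcgrt*, which encodes the receptor that recycles IgG and albumin, had a log2 fold change of -0.25 (SE 0.17).

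Interferon is the best known inducer of *Psmb8*, *Psmb9*, *Tap1* and the heavy chains, so genes of its signalling were read from a list. Of 16 such genes 15 passed the filter, 3 had an unadjusted p under 0.05 and were higher in *Sirt7* KO livers (6.54% of all tested genes were), 0 were lower (4.78%), and the median log2 fold change was 0.25. *Stat3*, a factor that also serves cytokine signals outside interferon, was at 144, 103 and 89.0 CPM in WT 1, 2 and 3 and at 184, 199 and 175 CPM in *Sirt7* KO 1, 2 and 3, without overlap (log2 fold change 0.73, SE 0.19, unadjusted p = 0.0040, adjusted p = 0.20, edgeR). *Irf7*, itself induced by interferon, was at 21.2, 26.0 and 29.7 CPM in WT livers and at 57.0, 34.6 and 28.6 CPM in *Sirt7* KO livers. *Sirt7* KO 1 was its highest liver, as for 8 of the 10 antigen presentation genes, and *Sirt7* KO 3 lay below WT 3. The log2 fold changes of *Irf7* and of the kinase gene *Tyk2* were 0.64 and 0.50, with adjusted p-values of 0.39 and 0.36 (edgeR). *Irf1*, named here as the factor known to act on *Psmb9*, *Tap1* and *B2m*, was at 28.1 to 34.6 CPM in WT and 27.3 to 31.2 CPM in *Sirt7* KO livers (log2 fold change -0.08, SE 0.15). *Ifnar2*, a receptor chain and the second most abundant gene of the list, was at -0.10 (SE 0.14). Whether interferon had a part in the values of the 10 genes was not tested.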

How the data were processed

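The authors trimmed reads of SMART-seq HT cDNA, made from 1 ng of RNA, with Trim Galore 0.6.5 and quantified them with Salmon 1.2.1 on GRCm38 transcripts. They deposited, per liver, estimated counts and TPM for 140992 transcripts, and the annotation release is not given in the sources used here. Here the estimated counts were summed per gene of GENCODE M21, leaving out 1201 unmatched transcripts (0.303% to 0.492% of reads), and rounded. Genes were tested with edgeR 4.0.16 (quasi-likelihood, TMM, filterByExpr with a minimum count of 10, Benjamini-Hochberg adjustment over 12524 genes), without covariates. The test was checked on simulated data. DESeq2 1.42.0 and other settings were alternatives. TPM served for levels between genes, summed over transcripts. Promoter windows came from RefSeq (GRCm38.p6), with 8 of the 10 genes matched. The members, lists and motifs were chosen with earlier results of these data known, and 1 gene taken out of the lists is not reported here. Named genes are the 10 members, *Sirt7*, the constitutive subunits and *Psmb10*, and, of each list, genes at an unadjusted p under 0.05 and the 2 with the highest mean CPM (for scarce marker lists given by their sum instead), while others are said to be named for their role or value. The labels give biological replicates. Libraries of a genotype differed by more than sampling noise (chi-square per gene at least 15.8), which by itself does not show that they came from different animals. Counts without molecular identifiers cover counting error only.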

Additional observations from a re-analysis of the deposited data

How the results depend on the processing

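There were 3 livers a group, with a biological coefficient of variation of 26.4%, and the smallest fold change detectable in the class I genes was not determined. The number of the 10 genes called was 4 at an unadjusted p under 0.05 with a fold change over 1.5, 3 without a filter on low counts (*Tap1*, *Psmb8* and *Psmb9*), 2 with DESeq2 without length offsets and 1 with them, against 0 in edgeR, also when any liver was left out. The number at an unadjusted p under 0.05 was 7 without a filter and 2 to 7 when a liver was left out. Of all genes, edgeR called 1, then 2 with total counts, 633 without a filter, 2 with length offsets, 257 and 240 with DESeq2 without and with offsets, and 0 to 252 when a liver was left out. All genes at an unadjusted p under 0.05 numbered 1418, then 2362 without a filter and 994 to 2208 when a liver was left out. Listed genes at that threshold numbered 14 against 29 without a filter and 13 to 22 when a liver was left out. The ISRE core matched 1 gene, *B2m*. The looser letters, added after the promoters were seen, matched 2 other genes, *H2-K1* and *H2-D1*, and not *B2m*. *B2m* changed sign with total counts (-0.009), without WT 1 (-0.029) and without *Sirt7* KO 1 (-0.203), with a range of -0.203 to 0.231 when a liver was left out. Total counts moved the median of all genes to -0.114, and relative to it *B2m* stayed above 0. The cause of these changes was not tested. The other 9 log2 fold changes stayed above 0 in all 15 alternatives, and *Psmb8* and *Psmb9* stayed at an unadjusted p under 0.05 in each.

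The labels do not say whether the replicate numbers pair the livers. Deviations of same-numbered livers correlated at 0.0652, 0.08 and -0.0437, and those of differently numbered livers at -0.103 to 0.0487. With 3 livers a group these values cannot decide whether livers were paired. With the replicate number as a block 41 genes were called (0.327% of those tested), of the 10 genes 0 were called and 3 had an unadjusted p under 0.05, as did 1431 of the 12524 genes tested.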

Other observations

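The genes for antigen presentation cluster on chromosome 17, where 8 of the 10 lie at or between *H2-K1* and *H2-D1*. The annotation places 137 genes in this interval, of which 58 were tested, and 10 of these had an unadjusted p under 0.05 in edgeR and were higher in *Sirt7* KO livers, while 0 were lower. Without the 8 genes described above 6 of 50 remained (6.54% of all tested genes were higher), with a median log2 fold change of 0.08. They were the complement genes *C4a* (1.43), *C4b* (0.64) and *C2* (0.46), the transporter gene *Tap2* (0.48), *Apom* (0.50), which encodes an apolipoprotein of high-density lipoprotein, and the zinc transporter gene *Slc39a7* (0.37).

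Salmon also divided the reads of a gene among its transcripts. Of the *Cd74* reads, 25.9%, 27.4% and 25.8% in WT 1, 2 and 3 and 30.3%, 19.7% and 35.2% in *Sirt7* KO 1, 2 and 3 went to Cd74-202, the form with 9 exons, and most others to the form with 8 exons. The share was highest in *Sirt7* KO 3 and 1, the livers with the most *Cd74* RNA, and lowest in *Sirt7* KO 2. Of the *Psmb8* reads, 48.2% to 66.0% were assigned to Psmb8-205, a transcript with a retained intron, and 32.3% to 44.1% to the coding transcript Psmb8-203. Tap1-201 received 0 reads in WT 1 and WT 2 and 29.5% to 39.6% of the *Tap1* reads in the other 4 livers. These shares are estimates from short single-end reads, with no test.

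*H2-Ea-ps*, the pseudogene of the I-E alpha chain, had 136, 165 and 47 reads in WT 1, 2 and 3 and 140, 68 and 197 reads in *Sirt7* KO 1, 2 and 3. Its highest liver was *Sirt7* KO 3 and not *Sirt7* KO 1, and WT 3 was the lowest, as for *H2-Eb1*.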
